A study of Homo sapiens with 4 samples.

Results

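The 35 genes described here make and regulate cholesterol and fatty acids. They were chosen by name, from the sterol synthesis pathway, its regulators SREBP and LXR, and the lipogenic enzymes, and all 35 were found among the 25702 genes counted. The K562 line, established from a chronic myeloid leukemia in blast crisis, was nucleofected with LeGO-iG2 carrying RUNX1::ERG or with the LeGO-iG2 empty vector (EV), both co-expressing green fluorescent protein, and otherwise left untreated. Each group had 2 replicates, and messenger RNA was sequenced. Transfection used 10 µg of plasmid under the study's general protocol, whose default assay time was 72 h, so the model is a transient one in a single cell line, and whether transfected cells were sorted before extraction is not given in the sources used here. In such bulk RNA, a change in the number of expressing cells and a change in RNA per cell cannot be told apart.

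Cholesterol is built from acetyl-CoA through mevalonate, squalene and lanosterol, and fatty acids from acetyl-CoA through malonyl-CoA. Most enzymes of both routes are induced by the SREBP transcription factors, which SCAP carries from the endoplasmic reticulum to the Golgi for cleavage when sterols are low, and which the INSIG proteins hold back when sterols are high. LXR receptors respond to oxysterols in the opposite sense and induce export of cholesterol. Dividing leukemia cells rely on these routes for new membranes.

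The libraries held from 59695387 to 82352144 counts. ERG had 4 counts in each EV library, against 80443 and 27218 in RUNX1::ERG replicates 1 and 2, so the labels held and the fusion was more abundant in replicate 1. The 8 K562 defining markers, among them embryonic and fetal globins, summed to between 11880 and 14030 normalized CPM (CPM after TMM scaling, where CPM relates a gene's counts to the library total). EV replicate 1 stood apart from the other libraries in the sum of 10 ATF4 stress genes. It was 2989 normalized CPM there and between 713.2 and 883.4 in the other 3. VEGFA, 1 of the 10, was nearly as high in RUNX1::ERG replicate 1, at 265.6 against 295.6 in EV replicate 1. Of the 6 monocytic markers 4 were tested and 1 was called, against 4.79% of all tested genes: CD14 rose from 0.304 ± 0.172 to 2.92 ± 1.32 normalized CPM (SD, n = 2). S100A8, S100A9 and ITGAM overlapped between groups, ITGAM with a log2 fold change of -0.99, and the list summed to between 0.936 and 5.34 normalized CPM. FCN1 had at most 2 counts, and MS4A1 and KRT14 were at 0 in every library. The lymphoid and epithelial lists summed to between 22.6 and 36.2 and between 55.5 and 81.4 normalized CPM, nearly all of it CD3D and EPCAM, and were lower in both RUNX1::ERG libraries. The part of these marker genes in any difference given here was not tested.

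None of the 34 tested genes passed the threshold. ABCG1 alone of the 35 was not tested, and in the quasi-likelihood test of edgeR, Benjamini-Hochberg adjusted over the 15394 genes that entered it, 0 reached an adjusted p under 0.05. Of all tested genes 4.79% were called, 3.64% higher and 1.15% lower with RUNX1::ERG. At an unadjusted p under 0.05 there were 5 (SQLE, TM7SF2, NR1H2, ABCA1 and ELOVL6), against 18.0% of all tested genes. Limma voom also called 0 of the 34, against 4.47% of all genes. The DESeq2 Wald test called 2 of 35, TM7SF2 and ELOVL6, against 5.93% of the 20312 genes with a fitted fold change. Both counts take any gene that DESeq2 gave no adjusted p as not called. The most that any alternative called was 4 of 34, where 11.3% of all genes were called. The log2 fold changes of the 34, RUNX1::ERG over EV, had a median of -0.02, beside -0.002 for all tested genes, with 16 above and 18 below 0. Their median absolute log2 fold change was 0.17, and it was 0.18 over the 9138 tested genes with a mean of at least 10 CPM.

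The precision behind this was fair for so few libraries. The median standard error of the log2 fold change was 0.16 for the 34 genes, and for 32 of them the 95% interval lay inside a 2-fold change in either direction. It lay inside a 1.5-fold change for 20. The exceptions to the 2-fold limit were TM7SF2 and ABCA1. For 18 of the 34 the difference between group means was smaller than the larger of the gaps between replicates. Such gaps between single libraries vary more than a difference of means, and no share over all tested genes was taken. The count therefore does not say whether the differences exceed the replicate spread. With 2 libraries a group, the smallest two-sided p that exact permutation allows is 0.333, so for single sums no test is given and the intervals use edgeR's moderated spread. Nothing in the labels says how the replicates were made, and p-values cover only the spread between these libraries.

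**Figure D1:**
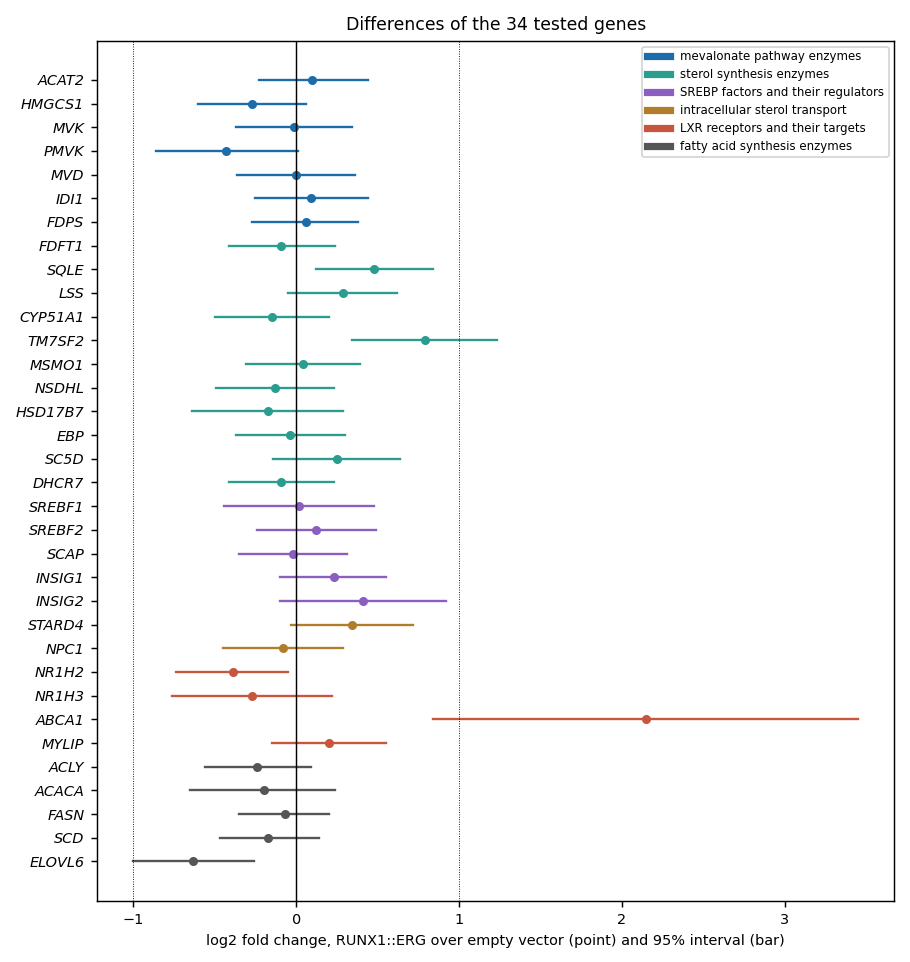
Log2 fold change of each of the 34 tested genes, RUNX1::ERG over EV (point), with its 95% interval (bar), colored by role. The dotted lines mark a 2-fold change, and only TM7SF2 and ABCA1 have intervals that cross a dotted line; 5 intervals stay clear of 0.

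Promoter letters were examined for sequence that these genes share. RefSeq promoters of GRCh38.p14, 250 bases before to 50 after a start site, were found for 30 of the 35 genes and not for ACAT2, FDFT1, SQLE, ABCG1 and FASN. The sterol regulatory element was searched in a single form, like the other motifs on both strands. That form was present for SREBF2 alone, and for 0.19% of the 27305 genes with a promoter. Other forms of the element, and sequence outside these promoters, were not searched. A gene without a match may therefore still hold such an element. The letters CCAAT, the box bound by NF-Y, a partner of SREBP, was present for 21 of the 30 (70.0%), against 39.7% of all genes. An E-box (CACGTG) was present for LSS, SC5D, SCAP, INSIG1 and ABCA1, 16.7% of the 30 against 8.77% of all genes. For the DNA-binding domains of the fusion, the Runt site TGTGGT was present for 6 of 30 (20.0%, against 15.6%) and the ETS site CCGGAA for 9 (30.0%, against 20.1%). Of the 3 genes nearest the threshold, TM7SF2 held an ETS site and a CCAAT box, ABCA1 an E-box, and ELOVL6 none of the 5 motifs. These are matches of letters and not measured sites. The genes set beside the 30 were not matched to them for gene type, expression or number of promoters.

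The 250 bases before the start sites of TM7SF2 and ABCA1 are shown as those of the genes with the smallest adjusted p for a higher level, and that of SREBF2 for its sterol regulatory element. Capitals mark motif matches on either strand, 5′ to 3′ along the gene.
TM7SF2, chr11:65111622-65111871, plus strand: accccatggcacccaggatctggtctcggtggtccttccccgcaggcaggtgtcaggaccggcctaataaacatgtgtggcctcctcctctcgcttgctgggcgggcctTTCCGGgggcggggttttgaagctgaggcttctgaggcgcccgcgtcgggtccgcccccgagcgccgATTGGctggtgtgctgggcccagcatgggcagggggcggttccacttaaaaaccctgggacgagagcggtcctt
ABCA1, chr9:104928156-104928405, minus strand: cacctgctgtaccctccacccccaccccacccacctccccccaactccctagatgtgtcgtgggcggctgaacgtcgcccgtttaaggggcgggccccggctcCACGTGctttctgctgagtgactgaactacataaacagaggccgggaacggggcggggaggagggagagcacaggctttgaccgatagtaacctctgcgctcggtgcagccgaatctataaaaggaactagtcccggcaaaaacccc
SREBF2, chr22:41832855-41833104, plus strand: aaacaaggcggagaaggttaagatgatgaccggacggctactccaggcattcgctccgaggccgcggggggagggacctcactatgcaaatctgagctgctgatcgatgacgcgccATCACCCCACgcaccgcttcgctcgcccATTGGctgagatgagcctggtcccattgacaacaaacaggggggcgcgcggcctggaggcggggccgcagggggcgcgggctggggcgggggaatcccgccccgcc
The capitals are TTCCGG, an ETS site on the reverse strand, and ATTGG, an inverted NF-Y box, in TM7SF2, CACGTG in ABCA1, and the sterol regulatory element followed by ATTGG in SREBF2.

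The mevalonate enzymes carry acetyl-CoA to farnesyl diphosphate. ACAT2, HMGCS1, MVK, PMVK, MVD, IDI1 and FDPS had log2 fold changes from -0.43 to 0.1 with a median of 0, and none was called. Their summed level was 1092 and 1077 normalized CPM in EV replicates 1 and 2 and 1063 in both RUNX1::ERG libraries. The sum thus differed by 0.98-fold between group means.

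HMGCS1, the synthase that forms HMG-CoA, was at 271.8 and 294.0 normalized CPM with EV and at 221.7 and 248.6 with RUNX1::ERG. Both RUNX1::ERG libraries lay below both EV libraries, with a log2 fold change of -0.27 (95% interval -0.6 to 0.06, adjusted p = 0.4 from edgeR). PMVK, which adds the second phosphate to mevalonate, was at 16.7 and 17.8 with EV and at 12.6 and 13.1 with RUNX1::ERG, also without overlap. Its log2 fold change was -0.43 (interval -0.86 to 0.01, adjusted p = 0.29). MVK and MVD, the kinase at the start and the decarboxylase at the end of the mevalonate steps, were level between groups. MVK ran from 50.6 to 52.4 normalized CPM over the 4 libraries, with an interval of the log2 fold change from -0.37 to 0.34. IDI1, the isomerase of the isoprene unit, and FDPS, which joins these units, had log2 fold changes of 0.09 and 0.06. ACAT2, the cytosolic thiolase, was at 0.1, with both RUNX1::ERG libraries narrowly above EV. Exons of HMGCS1, FDPS and ACAT2 share 46.7%, 41.4% and 29.9% of their bases with genes on the opposite strand in GENCODE v44, the last mainly with TCP1, and the strand setting of the counting is not given in the sources used here.

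The sterol enzymes turn farnesyl diphosphate into squalene, lanosterol and cholesterol. The 11 of them summed to 1693 and 1755 normalized CPM with EV and to 1784 and 1866 with RUNX1::ERG, a ratio of group means of 1.06. Both RUNX1::ERG libraries lay above both EV libraries in 4 genes and below in 2, against 25.1% and 22.1% of all tested genes. Their median log2 fold change was -0.04, so the higher sum came from few genes.

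SQLE, the squalene epoxidase and a rate-limiting step of this branch, was at 221.2 and 276.8 normalized CPM with EV and at 324.7 and 369.6 with RUNX1::ERG. The groups did not overlap, and replicate 2 was the higher of each pair. The log2 fold change was 0.48 (95% interval 0.12 to 0.84, adjusted p = 0.14 in edgeR). Without EV replicate 2, the higher of the EV pair, it was 0.65 with an adjusted p of 0.037. It was 0.32 (adjusted p = 0.44) without EV replicate 1. With RUNX1::ERG replicate 1 or 2 left out it was 0.57 (0.26) or 0.37 (0.54). LSS, the next enzyme, which closes the ring to lanosterol, was at 210.0 and 241.8 with EV and at 275.2 and 276.3 with RUNX1::ERG, a log2 fold change of 0.29 (interval -0.05 to 0.62, adjusted p = 0.36). SC5D, a late desaturase, stood likewise with all RUNX1::ERG values above EV and a log2 fold change of 0.25 (interval -0.14 to 0.64).

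TM7SF2 showed the smallest adjusted p of the 34 genes. It encodes a sterol reductase that acts after lanosterol demethylation, and lies on chromosome 11 of GRCh37 from 64879317 to 64883856. Its counts were 1398 and 1334 with EV and 3425 and 2304 with RUNX1::ERG, that is 23.2 and 18.9 against 40.6 and 32.0 normalized CPM. Both RUNX1::ERG libraries were above both EV libraries, and replicate 1 was the higher of each pair. The log2 fold change was 0.79 (standard error 0.2, 95% interval 0.34 to 1.23), and its adjusted p in edgeR, 0.052, just missed the threshold. Of 12 alternative analyses 8 called it, and its adjusted p ran from 0.0051 without the filter on low counts to 0.34 without RUNX1::ERG replicate 1. It was called without EV replicate 1 (adjusted p = 0.0054) and without RUNX1::ERG replicate 2 (0.018), and not without EV replicate 2 (0.094).

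LBR, the other enzyme that catalyses the TM7SF2 reaction, was at 354.7 and 388.3 normalized CPM with EV and at 295.6 and 349.9 with RUNX1::ERG, a log2 fold change of -0.2 (95% interval -0.54 to 0.13, adjusted p = 0.56 from edgeR). Per kilobase of its canonical transcript LBR was at 99.1 normalized CPM with EV against 13.3 for TM7SF2, and with RUNX1::ERG at 86.1 against 23.0. TM7SF2 thus remained the less abundant of the pair in both groups.

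The remaining sterol enzymes were close to level. FDFT1, the squalene synthase, CYP51A1, the lanosterol demethylase, MSMO1, NSDHL and HSD17B7, which remove the next methyl groups, EBP, the sterol isomerase, and DHCR7, the last reductase, had log2 fold changes from -0.17 to 0.04. DHCR7 was at 302.3 and 313.4 normalized CPM with EV and at 299.2 and 277.6 with RUNX1::ERG, below EV in both libraries by a small margin (interval -0.41 to 0.23). CYP51A1 also lay narrowly below, at 177.6 and 182.3 against 147.6 and 176.9. Of the canonical transcripts of CYP51A1 and EBP, 90.1% and 57.1% are shared with other GENCODE genes on the same strand. Whether those genes were in the annotation counted is not given in the sources used here. The values of CYP51A1 and EBP may therefore be uncertain, which was not tested. HSD17B7 is uncertain for its near-identical pseudogene.

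The SREBP factors themselves differed by less than the spread between replicates. SREBF1, which drives mostly lipogenic genes, was at 243.6 and 188.4 normalized CPM with EV and at 263.7 and 174.6 with RUNX1::ERG. In both groups replicate 1 was the higher, by 0.37 and 0.59 on the log2 scale, while the log2 fold change between groups was 0.02 (95% interval -0.44 to 0.48). Leaving out each library in turn moved it from -0.31, without RUNX1::ERG replicate 1, to 0.27, without RUNX1::ERG replicate 2, so its direction is not fixed by these data. SREBF2, which drives mostly cholesterol genes, was at 263.7 and 203.5 with EV and at 260.7 and 247.8 with RUNX1::ERG, a log2 fold change of 0.12 (interval -0.24 to 0.49). SCAP, the escort protein, ran from 152.3 to 161.4 over the 4 libraries.

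INSIG1 and INSIG2, the sterol-sensitive anchors of SCAP, both lay higher with RUNX1::ERG in each library, as did 25.1% of all tested genes, and neither was called. INSIG1, itself a classical SREBP target, was at 357.5 and 422.2 normalized CPM with EV and at 448.6 and 464.0 with RUNX1::ERG, a log2 fold change of 0.23 (95% interval -0.1 to 0.55, adjusted p = 0.49 from edgeR). INSIG2 was scarce, at 8.55 and 8.95 with EV against 10.1 and 13.2, a log2 fold change of 0.41 (interval -0.1 to 0.92, adjusted p = 0.4).

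Of the transport genes, STARD4, a cytosolic sterol carrier and SREBP target, was at 44.3 and 38.3 normalized CPM with EV and at 49.9 and 54.8 with RUNX1::ERG. The groups did not overlap, and its log2 fold change was 0.34 (95% interval -0.03 to 0.72, adjusted p = 0.33 from edgeR). NPC1, which exports cholesterol from lysosomes, was at 83.1 and 66.3 against 71.5 and 69.9, within the spread of the EV pair.

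Among the 5 LXR genes listed, the receptors NR1H2 and NR1H3 were lower with RUNX1::ERG, and the targets ABCA1, ABCG1 and MYLIP higher. None was called, and ABCG1 had too few counts to test. ABCA1 and MYLIP lay above EV in both RUNX1::ERG libraries, as did 25.1% of all tested genes. LXR targets beyond those listed here were not examined as a group. NR1H2, the broadly expressed LXR beta, was at 100.6 and 98.5 normalized CPM with EV and at 79.49 and 72.03 with RUNX1::ERG. Its log2 fold change was -0.39 (95% interval -0.74 to -0.05, adjusted p = 0.21 from edgeR). NR1H3, or LXR alpha, was at 9.21 and 9.64 against 7.99 and 7.66, with a log2 fold change of -0.27 (interval -0.76 to 0.22). In both receptor genes the groups did not overlap, as for 22.1% of all tested genes that lay below EV in both libraries.

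ABCA1, the transporter that loads cholesterol onto apolipoproteins and a leading LXR target, was nearly silent in these cells. It lies on chromosome 9 of GRCh37 from 107543287 to 107690436 and had 10 and 8 counts with EV and 53 and 44 with RUNX1::ERG. In normalized CPM these were 0.166 and 0.113 against 0.629 and 0.612. This was the largest ratio among the 34 genes, a fitted 4.43-fold difference (95% interval 1.79 to 11.0, log2 fold change 2.15, adjusted p = 0.069 in edgeR). With 8 counts in EV replicate 2, it passed the filter on low counts only through the RUNX1::ERG libraries, where it is higher, and it was not tested when at least 10 counts in every library were required. Of 11 alternatives that tested it 2 called it. Between 66.7% and 68.9% of the counts from 1 to 10 in each library were even numbers, and whether read pairs or single mates were counted is not given in the sources used here, so small counts may stand for fewer fragments.

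ABCG1, the other LXR-induced exporter, did not pass the filter on low counts. It had 0 counts in both EV libraries and 8 and 4 in the RUNX1::ERG libraries. With so few counts no fold is given. MYLIP, the LXR-induced ubiquitin ligase of lipoprotein receptors, was at 57.8 and 61.5 normalized CPM with EV and at 70.4 and 66.6 with RUNX1::ERG, a log2 fold change of 0.2 (95% interval -0.15 to 0.55, adjusted p = 0.58 from edgeR). Its level was far above those of ABCA1 and ABCG1 per kilobase as well, at 19.4 normalized CPM with EV against 0.0134 for ABCA1.

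The 5 fatty acid enzymes among the 35 genes were all lower in fitted expression, without a call. Further lipid genes, in the second list below, went both ways. The 5 genes summed to 2904 and 3006 normalized CPM with EV and to 2567 and 2765 with RUNX1::ERG, a ratio of group means of 0.902. Both RUNX1::ERG libraries lay below both EV libraries in 4 of the 5, against 22.1% of all tested genes, and the median log2 fold change was -0.2.

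ELOVL6, which elongates palmitate to stearate, departed most. It lies on chromosome 4 of GRCh37 from 110967002 to 111120355 and was at 93.1 and 92.2 normalized CPM with EV and at 53.6 and 66.5 with RUNX1::ERG. The EV pair agreed closely, and the lower RUNX1::ERG value was in replicate 1. The log2 fold change was -0.63 (standard error 0.17, 95% interval -1.0 to -0.26, adjusted p = 0.061 in edgeR). Of 12 alternatives 4 called it lower, and the adjusted p ran from 0.011 without the filter on low counts to 0.38 without RUNX1::ERG replicate 1. Without RUNX1::ERG replicate 2 it was 0.03.

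ACLY, which supplies cytosolic acetyl-CoA, was at 422.7 and 444.6 normalized CPM with EV and at 346.0 and 390.8 with RUNX1::ERG (log2 fold change -0.24, 95% interval -0.56 to 0.09). SCD, the desaturase that makes oleate, was at 941.3 and 926.6 against 768.3 and 894.3 (-0.17, interval -0.47 to 0.14). FASN, the fatty acid synthase and the gene with the most counts of the 35, was at 1285 and 1338 against 1269 and 1224. Its log2 fold change of -0.07 had the narrowest interval, from -0.35 to 0.2. ACACA, the carboxylase that forms malonyl-CoA, ran from 129.5 in RUNX1::ERG replicate 1 to 205.0 in EV replicate 2, with replicate 1 the lower in both groups and no separation between groups.

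Levels were compared between genes after division by transcript length. In EV the highest were FDFT1, SCD, FDPS and FASN, at 193, 178, 176 and 155 normalized CPM per kilobase. With RUNX1::ERG they were FDPS, FDFT1, SCD and INSIG1, at 183, 182, 158 and 157. FDPS, FDFT1 and SCD overlapped or differed by little more than their replicate spread and have no firm order. Below 10 in both groups were HSD17B7, SC5D, NR1H3, INSIG2, ABCA1 and ABCG1. Over all 35 genes the summed level was 7018 and 7093 normalized CPM with EV and 6838 and 7017 with RUNX1::ERG, a ratio of group means of 0.982.

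The summed level was set beside the other differences among the libraries. The sum in EV replicate 1, at 7018, lay between those of EV replicate 2 and RUNX1::ERG replicate 2. The summed ATF4 genes were high in EV replicate 1, and a link between them and the lipid genes was not tested. The median absolute gap between the EV replicates was 0.12 on the log2 scale over the 34 genes, and 0.13 between the RUNX1::ERG replicates. It was 0.17 between groups. That value compares groups of 2 libraries, which vary less than single libraries, so it is not like for like with the gaps. Of the 34 genes 10 lay above and 10 below EV in both libraries, against 25.1% and 22.1% of all tested genes. Of these 20, RUNX1::ERG replicate 1, with more fusion transcript, was the farther from EV in 9.

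A second list held 26 further genes of lipid synthesis, uptake and storage. Of its 25 tested genes 1 was called, against 4.79% of all tested genes, with a median log2 fold change of 0.01. That gene was FAXDC2, a member of the fatty acid hydroxylase family to which MSMO1 and SC5D also belong. It rose from 77.1 and 69.2 normalized CPM with EV to 119.5 and 125.4 with RUNX1::ERG, a log2 fold change of 0.74 (standard error 0.16, 95% interval 0.4 to 1.09, adjusted p = 0.023 in edgeR). LIPA, the lysosomal acid lipase, had at most 10 counts in a library and was not tested. The other 24, among them the SREBP proteases MBTPS1 and MBTPS2, were not called, at log2 fold changes from -0.35 for MBTPS2 to 0.5 for ACACB. Of the 25 tested, 13 were above 0 and 12 below. Both RUNX1::ERG libraries lay above both EV libraries in 8 and below in 4, against 25.1% and 22.1% of all tested genes. ME1 (0.47), FADS2 and LPIN1 (0.35 each) were among the 8.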

How the data were processed

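WTS of 4 K562 libraries, 2 per group, was analysed. The authors deposited raw read counts per gene without normalization, 1 file per library, with NCBI gene numbers; the submitters' processing notes name HISAT2 2.2.1, featureCounts 2.0.1 and hg19. The annotation used is not given in the sources used here. Gene numbers were joined to RefSeq symbols of GRCh38.p14 (92.2% of 25702 matched), and positions, transcript lengths (canonical transcript) and shared exons came from GENCODE v44 on GRCh37.

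Counts were compared in R 4.3.3 with edgeR 4.0.16: libraries were scaled by TMM, filterByExpr left 15394 genes, and quasi-likelihood p-values were Benjamini-Hochberg adjusted, with 0.05 as the threshold. Standard errors were the absolute log2 fold change divided by the square root of F, and 95% intervals used the same degrees of freedom. Normalized CPM are CPM over the TMM-scaled library size. A count of 0 allows up to 3 counts, or 0.0364 to 0.0503 CPM, for counting error only. Alternatives were other scalings and filters, DESeq2 1.42.0, limma 3.58.1, halved counts, a replicate block and leaving out each library. The procedure was tested on simulated data. All 35 genes were named, with those called in the list of other lipid genes. The members and lists were chosen with earlier results of these data known.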

Additional observations from a re-analysis of the deposited data

How the results depend on the processing

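The 34 tested genes gave 407 values under 12 alternatives. Of these, 378 counted as keeping direction and side of the threshold, 16 newly passed it and 13 turned sign. Signs were compared after rounding, so MVD, at a log2 fold change of 0.0, could not count as turned. The count called among these genes, 0 as reported, was 0 with library totals and limma voom. It was 1 higher gene with DESeq2 size factors, with at least 10 counts in every library and with halved counts (TM7SF2 each time), 1 higher and 1 lower with the DESeq2 Wald test (TM7SF2, ELOVL6), and 2 higher and 1 lower with no filter (TM7SF2, ABCA1, ELOVL6). With the replicate block it was 3 higher and 1 lower (TM7SF2, SQLE, ABCA1; ELOVL6), 4 of 34 where 11.3% of all genes were called. The share of all genes called was 7.38% with no filter. It was 5.93% with the DESeq2 Wald test, over all genes with a fitted fold change. With each library left out, higher calls ran from 0 to 1 and lower calls from 0 to 1: TM7SF2 without EV replicate 1 (0.94), SQLE without EV replicate 2 (0.65), TM7SF2 (0.93) and ELOVL6 (-0.8) without RUNX1::ERG replicate 2, none without RUNX1::ERG replicate 1. These fits have an arm with 1 library, assumed to vary like the other group. The median log2 fold change of the 34 genes ran from -0.03 to 0.02. Over all genes, calls numbered 1500 with no filter, 1204 with the DESeq2 Wald test, 1733 with the replicate block and from 286 to 1336 with each library left out. Deviations from the group means of equally numbered libraries had r = 0.271 across genes, which are not independent replicates, and the labels tie no number to a batch or day, so libraries were not paired. With library totals MVK (0.03), EBP (0.01) and SCAP (0.02) turned sign. With a library left out, 8 genes counted as turned. Ranges were -0.31 to 0.27 for SREBF1, -0.05 to 0.32 for SREBF2, -0.24 to 0.09 for NPC1 and -0.52 to 0.05 for ACACA. They were -0.08 to 0.13 for MSMO1, -0.01 to 0.18 for IDI1, -0.1 to 0.01 for EBP and -0.06 to 0.01 for SCAP. MVD, outside this count, ran from -0.14 to 0.12, so its direction is not fixed either. The cause was not tested, apart from left-out libraries, where fewer samples enter. Depth was thinnest for ABCA1 and ABCG1, as the other 33 genes had group means of at least 7.83 normalized CPM.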
